A study of Sus scrofa with 45 samples.

Results

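Whole blood of miniature pigs fed a high-fat, high-cholesterol, high-sucrose diet (HFCSD) was compared between 10, 19 and 27 weeks of feeding. The 10 arrays, of 45 in the series, were chosen by their titles, which read whole blood HFCSD: 4 at 10 weeks, 3 at 19 weeks and 3 at 27 weeks. The study fed male Clawn miniature pigs a control diet, a high-fat, high-cholesterol diet (HFCD) or HFCSD, and hybridized RNA of blood drawn into PAXgene tubes, which fix RNA at sampling, to 1-colour porcine oligonucleotide arrays of 43603 probes. The 12 control and 11 HFCD whole blood arrays of the same weeks served as comparisons for the HFCSD changes. In cells that take up cholesterol, the nuclear receptor LXR switches on genes that export it, such as ABCA1, while genes for its synthesis are switched off. RNA of whole blood is a mixture from neutrophils, lymphocytes, monocytes, young red cells and platelets, so in a bulk sample fewer cells of a type and less RNA per cell cannot be told apart.

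The HFCSD arrays of each week were scanned on a day of their own, shared with other diets of that week, and no slide held HFCSD arrays of different weeks. Time on the diet, age, scan day and slide therefore cannot be told apart in a comparison of HFCSD weeks. The study fed HFCSD to fewer pigs than there are HFCSD arrays, so some pigs were sampled at more than 1 week, but the labels do not say which arrays share a pig. The tests treat the 10 arrays as independent, and their p-values may be too large or too small for that reason. ABCA1, the cholesterol exporter, was used to check the diet label. It lay between 11.2 and 12.43 (log2 intensity) on the 10 HFCSD arrays and between 9.14 and 10.41 on the 12 control arrays, so the ranges did not overlap.

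Arrays of HFCSD blood resembled arrays of their own week more than those of other weeks. Over 13822 probes well above background on all 10 arrays, the correlation of log2 intensities across probes averaged 0.965 for the 12 pairs within a week and 0.938 for the 33 pairs from different weeks. The difference of 0.0276 had a 1-sided exact permutation p of 0.000476 over the week labels, the smallest that 4200 assignments can give. Mean correlations were 0.944 between HFCSD arrays of 10 and 19 weeks, 0.936 between 10 and 27 weeks and 0.931 between 19 and 27 weeks. Probes are not independent replicates, which is why the labels of arrays were permuted. Spots well above background made up 41.5%, 37.1%, 48.1% and 48.1% of those on the HFCSD arrays of 10 weeks, 42%, 48.4% and 38% at 19 weeks, then 39.6%, 38.8% and 39.7% at 27 weeks. The 27-week shares all lay inside the range of the 10-week shares. The difference in means was -0.876 percentage points for 19 minus 10 weeks (2-sided exact permutation p 1), -4.33 for 27 minus 10 weeks (p 0.286) and -3.45 for 27 minus 19 weeks (p 0.4). The smallest p these designs allow is 0.0571 for 4 against 3 arrays and 0.1 for 3 against 3. The 19 minus 10 difference was 0.588 without replicate 3 of 10 weeks, 0.591 without replicate 4 of 10 weeks and 1.52 without replicate 3 of 19 weeks. With a weaker flag for presence, the 27 minus 19 difference was positive.

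Genes of every main blood cell type were well above background on all 10 HFCSD arrays. Neutrophil genes had 11 of 13 listed genes present on every array, with ARG1 the brightest. Of the T and NK cell genes, 13 of 19 were present throughout, including CD3D, CD3E and CD8A, and the brightest was GNLY, a protein of cytotoxic granules. Monocyte genes such as CD14, CD163 and LYZ were present on every array (13 of 20), and so were the B cell genes IGHD and CD40 (6 of 8). PF4 and ITGA2B, which mark platelets, were among 10 of 13 platelet genes present throughout, and the embryonic globin probe HBE1 was the brightest of 5 erythroid genes out of 10. All 5 genes listed for basophils, eosinophils and mast cells were present, with ALOX15 the brightest.

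Between 10 and 27 weeks of HFCSD, the death ligand TNFSF10, the nuclear receptor NR4A3 and the tumour necrosis factor receptor TNFRSF1B were higher. So were THBS1, a matrix protein stored in platelets, the liver protein CRP and the cholesterol exporter ABCA1. Lower at 27 weeks were the membrane traffic GTPase ARF6, the chemokine receptor CXCR4, the lipid antigen presenter CD1.1 and the transcription factors STAT5A and NFATC1. Rises and falls were about equally frequent. By limma, 2140 of 16461 probes tested were called at an adjusted p under 0.05 (13%), 1049 higher (6.37%) and 1091 lower (6.63%) at 27 weeks, while 5100 were under 0.05 before adjustment. The count was lower under some other models, tests and presence rules, as given in the closing section. Among 1247 genes with a name, 146 were called (11.7%), 86 higher and 60 lower. Of 47 further probes tested for these genes, 33 went the same way, and no probe was called the other way.

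TNFSF10 read 5.57, 5.14, 4.77 and 4.76 at 10 weeks of HFCSD and 7.2, 6.95 and 7.59 at 27 weeks. Every 27-week array was above every 10-week array, and the fitted rise was 2.19 on the log2 scale (SE 0.24, adjusted p 0.00425). NR4A3 rose by 1.97 (SE 0.27, adjusted p 0.00559), from 4.83, 5.55, 5.35 and 4.9 at 10 weeks to 6.95, 7.49 and 6.94 at 27 weeks. TNFRSF1B rose by 1.55 (SE 0.25, adjusted p 0.00834), and its second probe rose by 1.3 (adjusted p 0.0199). THBS1 read 10.73, 10.56, 10.26 and 9.01 at 10 weeks and 12.93, 12.26 and 12.39 at 27 weeks, with replicate 4 of 10 weeks the lowest, and rose by 2.38 (SE 0.47, adjusted p 0.014). KCNC4, a voltage-gated potassium channel, rose by 2.62 (SE 0.51, adjusted p 0.0135). SPARCL1, a matrix glycoprotein, rose by 2.32 and AMH, a hormone of the gonads, by 1.96, with a second, dimmer AMH probe at 0.36 (adjusted p 0.251). CHAT, which makes acetylcholine, rose by 2.25, with 1 of the 4 arrays at 10 weeks well above background. A probe well above background on no array of a week was given, on each array, the larger of its value and the dimmest signal there that counted as well above background, so its change is a lower bound. Such a probe entered the test through its signal in the other week, and its call comes from the fit without this floor. No p-value is therefore given beside a bound. Where only 1 array of a week was well above background, as for CHAT, the change rests mostly on values not above it. Its exact size was then not measured. VIPR1, a receptor of the peptide VIP, was at least 2.9-fold higher at 27 than at 10 weeks.

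ARF6 was among the falls from 10 to 27 weeks of HFCSD. It read 10.03, 10, 10.26 and 10.44 at 10 weeks and 7.54, 8.05 and 7.94 at 27 weeks, a change of -2.34 (SE 0.33, adjusted p 0.00567) with no overlap. CXCR4, which holds leukocytes in the bone marrow, read 10.04, 9.82, 9.87 and 10.32 at 10 weeks and 7.59, 8.52 and 8.41 at 27 weeks (change -1.84, SE 0.4, adjusted p 0.0193). The change was -2.01 for CD1.1, -1.91 for NFATC1 and -1.91 for STAT5A; NFATC1 and STAT5A were each well above background on 2 of 3 arrays at 27 weeks. Other large falls were CRYL1 (-2.11), RSC1A1, a regulator of sugar transporters (-2.04, with a second probe at 0.25, adjusted p 0.501), the deacetylase SIRT7 (-2.03) and the phosphatase subunit PPP1CA (-1.93). NELFCD, part of a complex that pauses transcription, was at least 1.77-fold lower and ASB6 at least 2.16-fold lower. Among probes without a gene name, the largest rise with signal on every 27-week array and every 10-week array was 3.63 for A_72_P291359 (adjusted p 0.00901). The p-values measure only the spread between these samples.

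**Figure D1:**
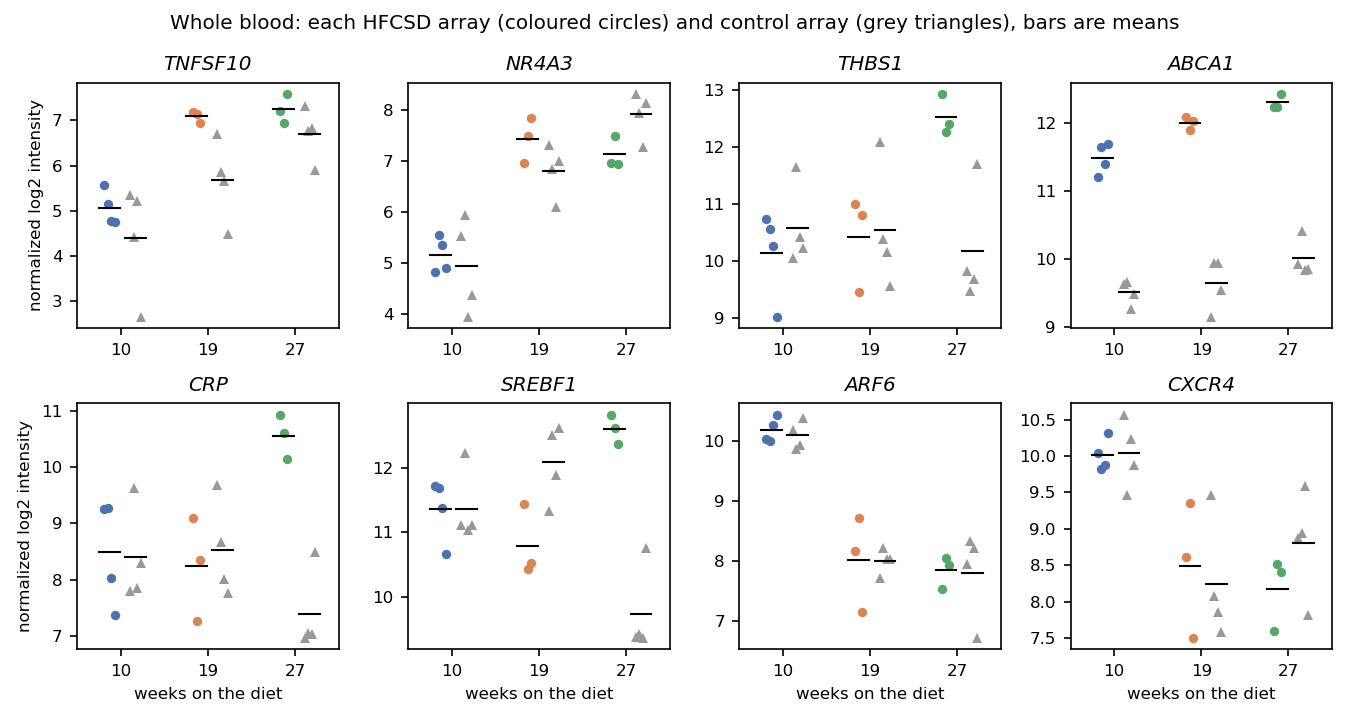
Normalized log2 intensity (y axis) of 8 genes at 10, 19 and 27 weeks (x axis), one point per whole blood array, HFCSD as circles and control as triangles. On the HFCSD arrays TNFSF10, NR4A3 and ARF6 differ between 10 weeks and both later weeks without overlap, while THBS1, CRP and SREBF1 are highest on the 3 arrays of 27 weeks.

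The number of probes called for 27 minus 10 weeks of HFCSD moved with single arrays: it was 1344 without replicate 1 of 10 weeks, 672 without replicate 3 and 675 without replicate 4 of that week, 560 without replicate 1 of 27 weeks and 835 without replicate 2 of 27 weeks. Of the 146 called genes 63 are given in the text, and of these 50 lost their call without replicate 1 of 27 weeks, 40 without replicate 2 and 33 without replicate 3. Leaving out replicates 1 to 4 of 10 weeks took the call from 25, 8, 44 and 43 of them, and leaving out replicates 1 to 3 of 19 weeks from 6, 2 and 1. TNFSF10, NR4A3, TNFRSF1B, STAG3, PHEX, ARF6, CD1.1, NFATC1, ABCB1 and HSPA1A were called with any 1 array left out. NELFCD and VIPR1 were too, but each entered the test through its signal in the other week. NELFCD had no array well above background at 27 weeks and VIPR1 none at 10 weeks, so these fits rest on values not above it. KCNC4 and THBS1 lost their call only without replicate 1 of 27 weeks (adjusted p 0.0542 and 0.0562). CXCR4 lost it without that array or replicate 4 of 10 weeks (adjusted p 0.0582 to 0.0741).

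From 10 to 19 weeks of HFCSD, more of the called probes rose than fell. The rises again included TNFSF10, NR4A3 and TNFRSF1B, with the cohesin subunit STAG3, KLRK1, an activating receptor of NK cells, the viral RNA sensors TLR7 and IFIH1, and the chaperone HSPD1. ARF6, STAT5A, RSC1A1 and the phospholipid transfer protein PLTP were lower at 19 weeks. By limma, 1059 of 17174 probes were called (6.17%), 710 higher (4.13%) and 349 lower (2.03%) at 19 weeks, while 4799 were under 0.05 before adjustment. Fewer were called with the study's test after adjustment or without a filter on dim probes, as given in the closing section. Among 1269 named genes 81 were called (6.38%), 51 higher and 30 lower. Of 31 further probes of these genes, 22 went the same way. This comparison shares its 10-week arrays with the one above.

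STAG3 read 6.07, 5.65, 5.76 and 5.49 at 10 weeks of HFCSD, 8.08, 8.08 and 8.21 at 19 weeks, then 6.98, 7.31 and 7.33 at 27 weeks, so the 3 weeks occupied separate ranges. Its rise to 19 weeks was 2.38 (SE 0.19, adjusted p 0.00138), and it was still called higher at 27 than at 10 weeks (1.46, adjusted p 0.00495). KLRK1 rose from 8.15, 8.58, 8.46 and 8 at 10 weeks to 9.86, 11.63 and 10.26 at 19 weeks (2.29, SE 0.37, adjusted p 0.0111). NR4A3 rose by 2.27 (SE 0.27) and TNFSF10 by 2.03 (SE 0.24), each with an adjusted p of 0.00324. TNFRSF1B rose by 1.99 (adjusted p 0.00387), and its second probe by 1.17 (adjusted p 0.0411). PHEX, an endopeptidase of phosphate balance, rose by 1.76 to 19 weeks (adjusted p 0.00506) and by 1.41 to 27 weeks (adjusted p 0.00887). The importin KPNA3 rose by 1.79, with 1 of 4 arrays at 10 weeks well above background. SAA2, an acute phase protein, was at least 4.77-fold higher at 19 weeks and the nucleolar protein NOC3L at least 2.33-fold higher.

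ARF6 was at 8.17, 8.72 and 7.15 on the HFCSD arrays of 19 weeks, below every 10-week array (change -2.17, SE 0.33, adjusted p 0.00864). RSC1A1 changed by -2.45 (adjusted p 0.0246) and STAT5A by -2.34 (adjusted p 0.0377), each with 2 of 3 arrays at 19 weeks well above background. A second RSC1A1 probe was at 0.7 (adjusted p 0.0935). KCNA1, a potassium channel (-2.21), and DUOX1, an oxidase that makes hydrogen peroxide (-2.18), had 1 of 3 arrays above background at 19 weeks. KLHDC3 (-1.52) and NELFCD (-1.38) also had 1 of 3, and PPP1CA (-2.08) and the drug transporter ABCB1 (-1.5) had 2 of 3. At 19 weeks the means of KCNA1 (2.63) and DUOX1 (2.58) lay below the dimmest signal well above background on each array (3.26 or higher). The falls with 1 of 3 arrays therefore rest mostly on values not above background, and their exact sizes were not measured. IGFBP2, which binds insulin-like growth factors, was at -1.58 for 19 minus 10 weeks and -1.64 for 27 minus 10 weeks (adjusted p 0.028 and 0.017). Among unnamed probes, A_72_P350070, from a liver library, was at -2.99 (adjusted p 0.00678), with 2 of 3 arrays at 19 weeks well above background.

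The 19 minus 10 count for HFCSD fell when any of 6 arrays was left out: 440 without replicate 1 of 10 weeks, 523 without replicate 2, 512 without replicate 3 and 390 without replicate 4 of that week, 502 without replicate 2 of 19 weeks and 277 without replicate 3 of 19 weeks. Of the 81 called genes 37 are given in the text, and of these 18, 16, 17 and 23 lost their call without replicates 1 to 4 of 10 weeks. Without replicates 1 to 3 of 19 weeks 9, 13 and 24 lost it, and without replicates 1 to 3 of 27 weeks 0, 8 and 3. STAG3, KLRK1, NR4A3, TNFSF10, TNFRSF1B, PHEX, ARF6, GUCY1B3, HSPD1, HSP90AB1 and NDUFC1 were called each time. STAT5A and SAA2 each lost their call in 5 of these 10 fits (adjusted p 0.0562 to 0.0847 for STAT5A and 0.054 to 0.112 for SAA2).

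From 19 to 27 weeks of HFCSD, nearly all named genes that were called rose. They included CRP, VTN, COL6A1 and UPK2, together with SREBF1, a transcription factor of lipid synthesis. STAG3, the integrin ITGAV and PRKAR1A, a subunit of protein kinase A, were among the falls. By limma, 905 of 16814 probes were called (5.38%), 679 higher (4.04%) and 226 lower (1.34%) at 27 weeks, while 4896 were under 0.05 before adjustment. Of those 4896, 2256 were higher and 2640 lower, and the median over all probes tested was -0.14. The excess of rises was therefore seen among the called probes and not in this wider set. Of 1235 named genes 71 were called (5.75%), 65 higher and 6 lower. All 11 further probes of these genes went the same way, and 0 of them were called. The 27-week arrays are shared with the first comparison and the 19-week arrays with the second. With the replicate number as a block the count was 2248, 1449 higher and 799 lower, and the 30 called genes given in the text kept their calls.

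KCNC4 rose by 2.83 (SE 0.54, adjusted p 0.0317) and ABCB4, a phospholipid transporter, by 2.83 (SE 0.51, adjusted p 0.0294) between 19 and 27 weeks of HFCSD. UPK2, a bladder lining protein, read 10.07, 8.31 and 8.77 at 19 weeks, then 11.29, 12.23 and 11.04 at 27 weeks, a rise of 2.47 (adjusted p 0.0286). SPARCL1 rose by 2.72, the nuclear receptor PPARD by 2.44, the sulfotransferase GAL3ST2 by 2.41, the smooth muscle protein SMTN by 2.38 and the sugar transporter SLC2A11 by 2.33. Vitronectin (VTN) rose by 2.29, CBLN4 by 2.19, THBS1 by 2.12, AMH by 2.05 (0.67 on its dimmer probe), SLC5A10 by 2.01 and KLHDC3 by 1.87, the last with 1 of 3 arrays at 19 weeks above background. PPARD and ITIH4, a plasma protein that rose by 2.06, had 2 of 3. VIPR1 was at least 2.76-fold higher. The 6 named falls were STAG3 (-0.92), PRKAR1A (-0.89), ITGAV (-1.25), OSTF1 (-1.05), ATP5G2 (-0.98) and NAMPT, an enzyme of NAD synthesis, which was at least 2.07-fold lower. For 27 minus 10 weeks, ITGAV was at -1.3 and PRKAR1A at -0.74, and ABCB4, PPARD, CBLN4 and VTN were higher by 1.76, 1.76, 1.69 and 1.82.

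The 27 minus 19 calls of HFCSD rested on single arrays more than the others. The count was 0 without replicate 2 of 19 weeks, replicate 1 of 27 weeks or replicate 2 of 27 weeks, and 4 without replicate 3 of 19 weeks, and the 30 called genes given in the text, of 71, lost their call in each of these 4 limma fits. The count was 304 without replicate 1 of 10 weeks, 1484 without replicate 2, 515 without replicate 3 of 10 weeks, and 1739 without replicate 3 of 27 weeks. All 33 whole blood arrays in one fit gave 7 calls, and the adjusted test of the study's methods gave 1. Adjusted p-values of these 30 genes ran from 0.05 to 0.177 in the fits that lost the call.

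ABCA1 was the brightest of 14 genes on the array listed as LXR targets or cholesterol carriers. It read 11.2, 11.65, 11.39 and 11.69 at 10 weeks of HFCSD, 12.08, 11.9 and 12.03 at 19 weeks, then 12.23, 12.24 and 12.43 at 27 weeks, in ranges that did not overlap. Its rise to 27 weeks was called (0.82, SE 0.18, adjusted p 0.0203), but not without replicate 3 of 10 weeks or any 1 of the 3 arrays of 27 weeks (adjusted p 0.0539 to 0.0635). The value for 19 minus 10 weeks was 0.52 (adjusted p 0.101). From 10 to 27 weeks ABCA1 changed by 0.5 in control and by 0.54 under HFCD. Its difference between HFCSD and control was 0.32 and not called (limma adjusted p 0.537). SREBF1 read 11.72, 11.69, 11.38 and 10.66 at 10 weeks, 11.44, 10.43 and 10.52 at 19 weeks, then 12.82, 12.61 and 12.36 at 27 weeks. Its rise was 1.23 for 27 minus 10 weeks (SE 0.32, adjusted p 0.0349), lost in 5 of the fits that left out 1 array (adjusted p 0.0544 to 0.118), and 1.8 for 27 minus 19 weeks (adjusted p 0.0317). A second SREBF1 probe of like brightness was at -0.1 for 27 minus 10 weeks (adjusted p 0.944) and at 1.07 for 27 minus 19 weeks (adjusted p 0.406). PLTP (-1.48, adjusted p 0.0326) and NPC2, which moves cholesterol out of lysosomes (-1.12, adjusted p 0.0288), fell to 19 weeks; each call was lost in 5 or more of the 10 fits (adjusted p 0.065 to 0.129 for PLTP and 0.0546 to 0.103 for NPC2). Over the 10 LXR genes tested the median was -0.46 for 19 minus 10 weeks and 0.06 for 27 minus 10 weeks, the latter with the other sign (-0.04) after normexp background correction. The fatty acid carrier CD36 was at -1.09 for 27 minus 10 weeks (adjusted p 0.0947).

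Most genes of cholesterol synthesis and uptake had negative values at 19 and 27 weeks of HFCSD against 10 weeks. By limma 0 of 9 tested genes were called in any comparison of HFCSD weeks. Over all probes 6.17%, 13% and 5.38% were called for 19 minus 10, 27 minus 10 and 27 minus 19 weeks. The list's median was -0.34 for 19 minus 10 weeks and -0.64 for 27 minus 10 weeks, against -0.01 and -0.05 over all probes. Against 10 weeks, 8 of 9 values at 27 weeks were negative and 5 had an unadjusted p under 0.05, as did 31% of all probes. Squalene epoxidase (SQLE) was at -0.83 (adjusted p 0.113), with 2 of 3 arrays at 27 weeks well above background. The mean level of the list was 7.47, 7.39, 7.58 and 7.75 at 10 weeks, 7.15, 7.25 and 7.29 at 19 weeks, then 6.66, 7.18 and 7.21 at 27 weeks, so every later array lay below every 10-week array. This was not particular to the list. Mean levels of the glycolysis list (8.14 to 8.97 at 10 weeks, 7.34 to 7.95 later) did not overlap either. Nor did those of the respiratory chain list (10.52 to 10.6 at 10 weeks, 10.77 to 11.39 later).

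Of 30 genes of fatty acid metabolism and adipocytes tested for 27 minus 10 weeks of HFCSD, ACSL4, which activates polyunsaturated fatty acids, rose by 1.66 on its brightest probe (adjusted p 0.0415), and CPT1B (-1.57, adjusted p 0.0216) and ANGPTL4 (-1.81, adjusted p 0.029), each with 2 of 3 arrays at 27 weeks above background, fell. These calls were lost in 6, 4 and 5 of the 10 fits without 1 array (adjusted p 0.0564 to 0.136). Other ACSL4 probes were at 0.46, 0.64, 0.2 and 1.06, of which the last was called (adjusted p 0.0358), and a second CPT1B probe was at -0.92 (adjusted p 0.0719). Over all probes 13% were called. UCP2, the brightest of the list, rose by 0.84 from 19 to 27 weeks (adjusted p 0.0492). The list's median was -0.21 for 19 minus 10 weeks and 0 for 27 minus 10 weeks. Glycolysis genes had a median of -0.4 and -0.36 over 6 genes in these comparisons, and TPI1 was called lower at 27 weeks (-1.54, adjusted p 0.0391), a call lost in 6 fits (adjusted p 0.0682 to 0.104). Antioxidant enzymes had a median of 0.09 and 0.16 over 13 genes. HMOX2, which breaks down haem, fell to 27 weeks (-1.85, adjusted p 0.0288; not called in 5 fits, adjusted p 0.0549 to 0.103), while thioredoxin (TXN) was at 0.89 (adjusted p 0.0634) and called higher on a second probe (0.94, adjusted p 0.0279). ROMO1, a regulator of reactive oxygen, read 13.73, 13.96, 12.08 and 11.51 at 10 weeks, 14.89, 13.53 and 10.31 at 19 weeks, then 15.56, 15.61 and 15.22 at 27 weeks. The 27-week arrays were the highest, but with this spread the value of 2.64 for 27 minus 10 weeks had an adjusted p of 0.0905, and its other 3 probes, none of them called, had smaller values, 1, 1.16 and 0.9.

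Most interferon-induced genes had positive values for 19 against 10 weeks of HFCSD, but few were called. Of 25 tested, 21 had positive values for 19 minus 10 weeks, with a median of 0.51 against -0.01 over all probes, 12 had an unadjusted p under 0.05 (27.9% of all probes did) and 1 was called, IFIH1 (1.11, SE 0.21, adjusted p 0.0174), where 6.17% of all probes were called. A second IFIH1 probe was at -0.06 (adjusted p 0.942). The list overlapped in mean level between the weeks, with 10.1, 10.78, 10.22 and 10.06 at 10 weeks against 10.65, 11.23 and 10.55 at 19 weeks. For 27 minus 10 weeks the median was 0.34, and IRF7 (1.67, adjusted p 0.0244) and ISG20 (1.44, adjusted p 0.0258) rose. For 27 minus 19 weeks it was -0.25 with 0 called by limma and 2 at an unadjusted p under 0.05. The IFIH1 call was lost without replicate 2 or 3 of 19 weeks (adjusted p 0.0537 to 0.0616), the IRF7 call in 4 fits (0.0557 to 0.0908) and the ISG20 call in 6 (0.0506 to 0.0785). A second IRF7 probe was at 0.65 for 27 minus 10 weeks (adjusted p 0.287). RSAD2, an antiviral enzyme, read 8.37, 10.14, 8.36 and 7.42 at 10 weeks, 10.18, 11.2 and 10.35 at 19 weeks, then 9.9, 10.2 and 10.68 at 27 weeks. Replicate 2 of 10 weeks stood near the later arrays, and the values were 2.01 for 19 minus 10 weeks (adjusted p 0.0559) and 1.69 for 27 minus 10 weeks (adjusted p 0.0645). The chemokine CXCL10 (2.54, adjusted p 0.0684), MX2 (1.25, adjusted p 0.137) and MX1 (0.82, adjusted p 0.115) overlapped between 10 and 19 weeks. LGALS9 was at 1.26 for 27 minus 10 weeks (adjusted p 0.0784).

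Among 30 cytokine and Toll-like receptor genes tested for 19 minus 10 weeks of HFCSD, TLR7 (1.45, adjusted p 0.0188) and the chemokine CCL8 (1.88, adjusted p 0.0423) rose, CCL8 with 2 of 4 arrays at 10 weeks above background; over all probes 6.17% were called. Of 29 tested for 27 minus 10 weeks, TLR7 (1.21, adjusted p 0.0215), CCL3L1 (1.25, adjusted p 0.0245) and CCL4 (1.4, adjusted p 0.0382) rose and CXCR4 fell, where 13% of all probes were called. CCL3L1, which attracts leukocytes, read 5.3, 5.23, 6.25 and 6.01 at 10 weeks, 5.77, 5.53 and 5.77 at 19 weeks, then 7.05, 6.52 and 7.26 at 27 weeks, where every array was the highest, and was 1.25 higher than at 19 weeks too. The list's medians were 0.07, 0.26 and 0.07 for 19 minus 10, 27 minus 10 and 27 minus 19 weeks. For 27 minus 10 weeks the call was lost in 4 fits for TLR7 (adjusted p 0.0518 to 0.064), in 3 for CCL3L1 (without replicate 1 of 10 weeks or replicate 1 or 3 of 27 weeks, adjusted p 0.0546 to 0.0827) and in 7 for CCL4 (0.0504 to 0.125). For 19 minus 10 weeks, TLR7 lost it in 2 fits (without replicate 4 of 10 weeks or 3 of 19 weeks, adjusted p 0.0515 to 0.0767) and CCL8 in 7 (0.0527 to 0.168). IL18 was at 1.31 for 27 minus 10 weeks (adjusted p 0.0974).

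Lymphocyte genes did not move as a block under HFCSD. Of 16 T and NK cell genes tested for 27 minus 10 weeks, KLRK1 (1.44, adjusted p 0.034) and GNLY (0.89, adjusted p 0.0475) rose and CCR7, which guides naive T cells to lymph nodes, fell (-1.43, adjusted p 0.0418), with a median of -0.35; over all probes 13% were called. CCR7 read 11.96, 11.56, 12.11 and 12.35 at 10 weeks, 11.49, 11.52 and 9.78 at 19 weeks, then 10.44, 10.46 and 10.79 at 27 weeks. These 3 calls were lost in 6, 7 and 6 of the 10 fits without 1 array (adjusted p 0.0617 to 0.155). For 19 minus 10 weeks the list's median was -0.06, with the other sign (0.21) after centring within classes of base composition. B cell genes had a median of -0.21 over 6 genes for 27 minus 10 weeks and 0 calls by limma, with 0 at an unadjusted p under 0.05. All genes of the MHC class I and class II list had negative values for 27 minus 10 weeks (10 of 10, median -0.43). The MHC list includes the peptide transporter TAP1 and the proteasome subunit PSMB8, which are also in the interferon-induced list. The class I gene SLA-7 fell (-1.73, adjusted p 0.0349), a call lost in 7 fits (adjusted p 0.0547 to 0.112). TAP1, which loads peptides onto class I molecules, was at -2.25 (adjusted p 0.0733), and a dimmer TAP1 probe was called lower (-3.16, adjusted p 0.0143). The mean level of the MHC list was 12.43, 13.06, 13.02 and 13.14 at 10 weeks, 12.14, 13.16 and 11.95 at 19 weeks, then 11.7, 12.41 and 12.54 at 27 weeks.

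Myeloid and red cell genes gave no calls by limma in any comparison of HFCSD weeks. These lists hold 5 to 13 tested genes each. Over all probes 6.17%, 13% and 5.38% were called for 19 minus 10, 27 minus 10 and 27 minus 19 weeks. Neutrophil genes had a median of 0.16 over 11 genes for 27 minus 10 weeks, with 1 at an unadjusted p under 0.05, where 31% of all probes were. Monocyte genes had a median of 0.34 over 13 genes, with 3 at an unadjusted p under 0.05; the costimulator CD86 was at 0.66 for 27 minus 10 weeks (adjusted p 0.0552) and the chemokine receptor CCR2 at 0.75 for 19 minus 10 weeks (adjusted p 0.067). Genes of basophils, eosinophils and mast cells had a median of 0 over 5 genes, 2 of them at an unadjusted p under 0.05. Erythroid genes had a median of 0.34 over 6 genes, 1 of them at an unadjusted p under 0.05. For 27 minus 19 weeks 5 of 5 erythroid genes were positive (median 0.79), with 0 at an unadjusted p under 0.05. Their median for 19 minus 10 weeks was -0.11.

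Most platelet genes had negative values at 19 and 27 weeks of HFCSD against 10 weeks, and 1 of 12 was called in each comparison, where 6.17% and 13% of all probes were. Of the 12, 10 were negative in each comparison with 10 weeks, with medians of -0.89 and -0.71. THBS1 was called higher at 27 weeks, and GUCY1B3, a subunit of the nitric oxide receptor, was called lower at 19 weeks (-1.4, SE 0.24, adjusted p 0.014). Clusterin (CLU) was at -2.13 for 19 minus 10 weeks (adjusted p 0.108) and -2.15 for 27 minus 10 weeks (adjusted p 0.085). PF4, the brightest of the list, read 13.08, 13.88, 13.22 and 13.94 at 10 weeks, 13.23, 11.93 and 13.75 at 19 weeks, then 13.81, 12.93 and 10.76 at 27 weeks, so the weeks overlapped and 1 array of each later week was low. The mean level of the list was lowest on those same arrays, 8.7 on replicate 2 of 19 weeks and 8.46 on replicate 3 of 27 weeks, against 9.56 to 10.57 on the other 8.

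Most heat shock protein and chaperone genes (9 of 11) had positive values for 19 against 10 weeks of HFCSD, and 4 were called higher and 1 lower, where 6.17% of all probes were called. HSPD1, a mitochondrial chaperonin, read 7.06, 6.92, 7.07 and 6.73 at 10 weeks, 8.51, 8.47 and 8.7 at 19 weeks, then 8.1, 7.55 and 8.01 at 27 weeks, 3 separate ranges. It rose by 1.61 to 19 weeks (SE 0.19, adjusted p 0.00308) and by 0.94 to 27 weeks (adjusted p 0.0155). HSP90AB1 (1.35, adjusted p 0.0111), HSPA5 (1.15, adjusted p 0.0288) and HSPE1 (1.05, adjusted p 0.0418) also rose to 19 weeks, while the inducible HSPA1A fell (-1.46, adjusted p 0.0231). A second HSP90AB1 probe of like brightness went the other way, at -0.81 for 19 minus 10 weeks (adjusted p 0.119) and called lower for 27 minus 10 weeks (-1.1, adjusted p 0.0399). A second HSPA1A probe was at 0.34 for 19 minus 10 weeks (adjusted p 0.377) and -0.34 for 27 minus 10 weeks (adjusted p 0.367). The median over 11 genes was 0.64 for 19 minus 10 weeks, 0.11 for 27 minus 10 weeks and -0.56 for 27 minus 19 weeks. For 27 minus 10 weeks HSPA5 rose by 1.02 (adjusted p 0.0289) and HSPA1A fell (-1.66, adjusted p 0.011). Without 1 array, the 19-week calls of HSPA1A, HSPA5 and HSPE1 were lost in 4, 5 and 7 fits (adjusted p 0.0573 to 0.159), and the 27-week calls of HSPD1 and HSPA5 in 2 and 5 (adjusted p 0.0507 to 0.0877). Immediate early and stress genes had a median of 0.02 over 9 genes for 27 minus 10 weeks (-0.02 after centring within classes of base composition), with 0 calls by limma and 0 at an unadjusted p under 0.05.

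Most respiratory chain genes had positive values for 19 against 10 weeks of HFCSD. Of 22 tested, 19 were positive for 19 minus 10 weeks (median 0.51) and 4 were called, against 6.17% of all probes: NDUFC1 (1.64, adjusted p 0.0103), COX7C (1.46, adjusted p 0.0145), COX6C (1.32, adjusted p 0.0353) and ATP5O (1.02, adjusted p 0.0414). At 27 against 10 weeks the median was 0.3, and COX7C (1.03), ATP5I (0.96) and NDUFC1 (0.95) rose, with adjusted p-values of 0.0312, 0.0336 and 0.0418. The median was -0.27 for 27 minus 19 weeks. Ribosomal protein genes had a median of 0.39 over 28 genes for 19 minus 10 weeks, where RPS29 rose by 1.03 (adjusted p 0.0335) and RPL23 (1.65, adjusted p 0.0561) and RPL22 (1.48, adjusted p 0.0594) were not called. A second, dimmer RPL22 probe was called lower at 19 weeks (-1.82, adjusted p 0.0126). Their median was 0.16 for 27 minus 10 weeks, with RPS21 higher (0.61, adjusted p 0.0499) and RPL5 lower (-1.17, adjusted p 0.0443). For 27 minus 19 weeks the ribosomal median was -0.29 but 0.14 when each array was scaled to its 75th percentile. The 19-week calls were lost without replicate 3 of 19 weeks for COX7C (adjusted p 0.0584), in 6 or 7 fits for COX6C, ATP5O and RPS29 (adjusted p 0.0517 to 0.128), and the 27-week calls of COX7C, ATP5I, NDUFC1, RPS21 and RPL5 in 6, 4, 8, 9 and 7 fits (adjusted p 0.0511 to 0.156). Proteasome genes had a median of -0.33 over 10 genes for 27 minus 10 weeks, with 0 calls by limma and 1 at an unadjusted p under 0.05.

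Cell cycle genes moved in both directions under HFCSD, and 9 of 13 on the array were well above background on all 10 HFCSD arrays. Of 9 tested, 1 was called higher and 1 lower for 19 minus 10 weeks, where 6.17% of all probes were called. For 27 minus 10 weeks 1 was called higher and 2 lower, against 13% of all probes. CCND2, the brightest, rose to 19 weeks (0.75, adjusted p 0.0363) and to 27 weeks (0.79, adjusted p 0.02), while CCND3 fell (-1.48, adjusted p 0.0425, and -1.33, adjusted p 0.04) and STMN1, which destabilizes microtubules, fell to 27 weeks (-0.83, adjusted p 0.0317). A second STMN1 probe was called lower at both later weeks (-1.55, adjusted p 0.0219, and -1.89, adjusted p 0.00821). The other tested CCND2 probes, both dimmer, went the other way without a call, at -0.58 and -0.65 for 19 minus 10 weeks and -0.68 and -0.69 for 27 minus 10 weeks. The calls were lost in 8 fits each for 19 minus 10 weeks (adjusted p 0.0511 to 0.107) and in 5, 7 and 4 for 27 minus 10 weeks (adjusted p 0.0536 to 0.131). The median over 9 genes was -0.26 for 19 minus 10 weeks and -0.29 for 27 minus 10 weeks.

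Genes of liver plasma proteins had positive medians at 27 weeks of HFCSD against both earlier weeks, though only some were called: 2 of 9 against 10 weeks, where 3 were negative, and 3 of 10 against 19 weeks, against 13% and 5.38% of all probes. Of 30 on the array, 6 were well above background on all 10 arrays, and 16, among them the defining liver genes ALB, APOB, TTR and SERPINA1, were so on 0 arrays. CRP, the brightest, read 9.26, 9.27, 8.03 and 7.38 at 10 weeks, 9.1, 7.27 and 8.35 at 19 weeks, then 10.93, 10.6 and 10.14 at 27 weeks, which lay above all others. CRP rose by 2.07 from 10 weeks (SE 0.53, adjusted p 0.0336) and by 2.32 from 19 weeks (adjusted p 0.0471), and the iron hormone HAMP by 1.09 (adjusted p 0.0475) and 1.33 (adjusted p 0.0498). Against 10 weeks the calls were lost in 5 fits for CRP (adjusted p 0.0519 to 0.113) and in 7 for HAMP (0.052 to 0.164). The median over 9 genes was 0.88 for 27 minus 10 weeks, and over 10 genes 1.19 for 27 minus 19 weeks. The mean level of the list was 6.22, 6.74, 5.64 and 5.78 at 10 weeks, 6.28, 6.12 and 5.81 at 19 weeks, then 6.99, 6.65 and 6.72 at 27 weeks, with replicate 2 of 10 weeks inside the range of 27 weeks. What liver RNA contributed to these values was not tested.

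Muscle and vessel wall genes were mixed under HFCSD. Of 27 skeletal muscle genes on the array, 8 were well above background on all 10 arrays, with TPM3 the brightest, and 12 on 0, including CKM, MYH2 and MYOD1. Their median was 0.12 over 10 genes for 27 minus 10 weeks and 0.66 over 9 genes for 27 minus 19 weeks. The mean level was 8.74, 8.61, 8.11 and 8.38 at 10 weeks, 8.43, 7.91 and 7.88 at 19 weeks, then 8.84, 8.43 and 8.18 at 27 weeks. Of 25 smooth muscle and vessel wall genes, 11 were present on all arrays, with FLNA the brightest, and 7 on 0, including COL1A1, CDH5 and KDR. Their median was -0.79 over 13 genes for 19 minus 10 weeks and 0.36 for 27 minus 19 weeks, and the mean level was 8.31, 8.54, 8.03 and 8.36 at 10 weeks, 7.87, 7.3 and 7.59 at 19 weeks, then 8.46, 8.4 and 7.93 at 27 weeks. SMTN (1.67, adjusted p 0.0275), COL6A1 (1.21, adjusted p 0.0203) and desmin, DES (1.05, adjusted p 0.0411), rose from 10 to 27 weeks and TPM2 fell (-1.25, adjusted p 0.0215), each call lost in 4 fits without 1 array (adjusted p 0.0548 to 0.139). From 19 to 27 weeks COL6A1 rose by 2.02, decorin (DCN) by 2.08 and DES by 1.36. The study had named TPM1 for another comparison, as lower in white blood cells at 27 weeks of HFCSD than in control. In whole blood TPM1 was at -1.83 for 27 minus 10 weeks (adjusted p 0.0563). Its other probes were at 1.03 (adjusted p 0.225) and -2.24, the last just called lower (adjusted p 0.05 after rounding). Dimmer probes of SMTN (0.7) and DES (0.82) were not called for 27 minus 10 weeks. The part of these tissues in the values was not tested.

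**Figure D2:**
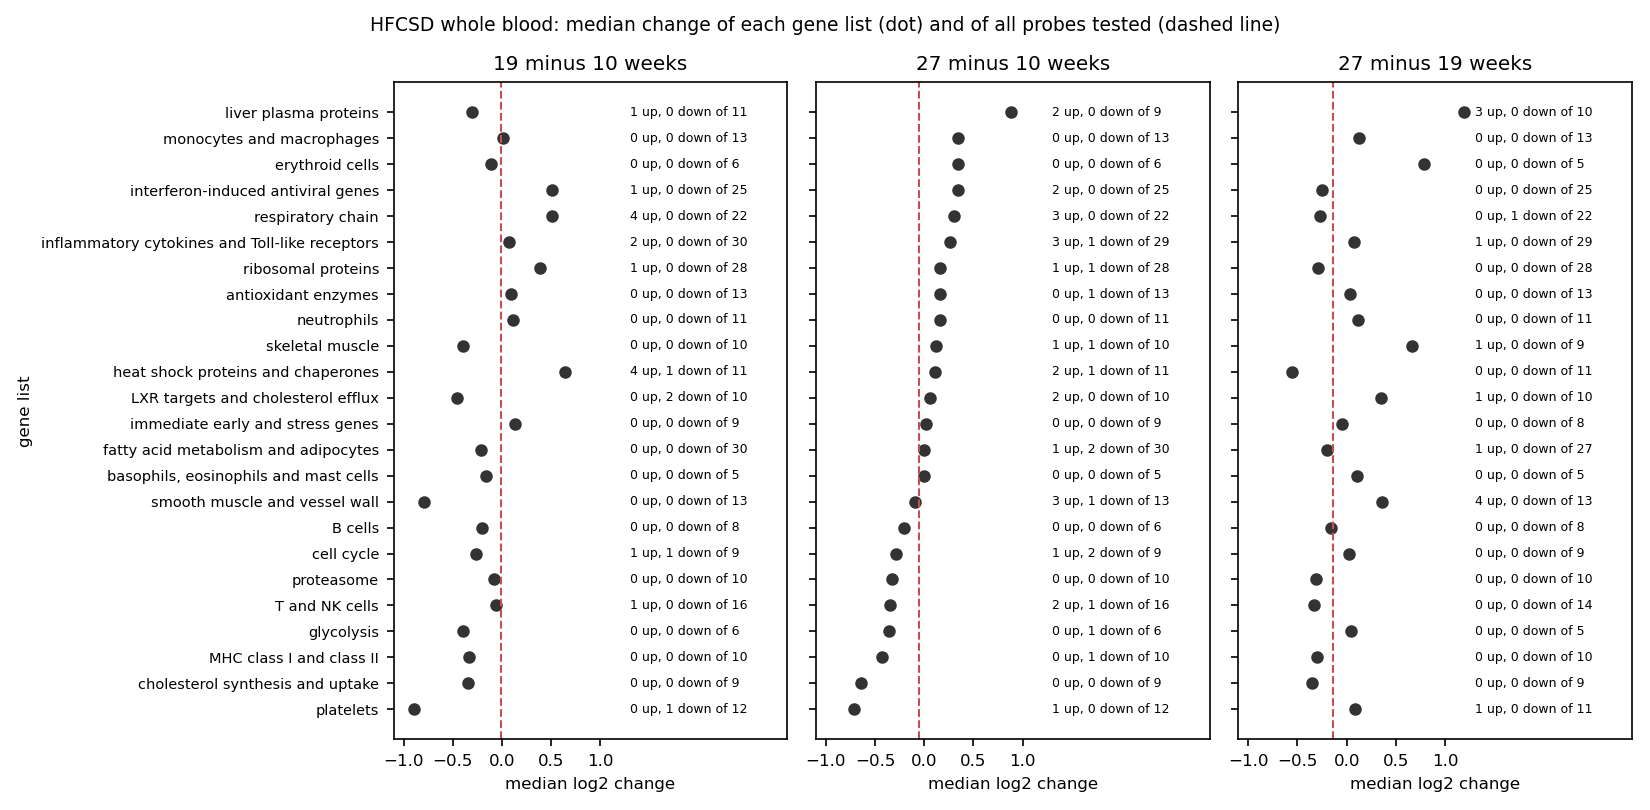
Median log2 change (x axis) of each of 24 gene lists (y axis) in the 3 comparisons of HFCSD weeks, with the counts of genes called higher and lower out of those tested and a dashed line at the median over all probes tested (-0.01, -0.05 and -0.14). Liver plasma proteins have the highest median for 27 minus 10 and 27 minus 19 weeks (0.88 and 1.19) and platelets the lowest for 19 minus 10 weeks (-0.89), while for ribosomal proteins the 27 minus 19 median changes sign with the scaling.

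Many of the genes named above that moved between weeks under HFCSD were also at different levels between weeks in control pigs. ARF6 averaged 10.09, 8 and 7.8 on control arrays of 10, 19 and 27 weeks, against 10.18, 8.01 and 7.84 under HFCSD. TNFSF10 averaged 4.41, 5.67 and 6.71 under control, and NR4A3 4.94, 6.8 and 7.91, so both were higher at later weeks there too. From 10 to 27 weeks in control, TNFRSF1B changed by 1.93, STAG3 by 2, PHEX by 1.21 and KLRK1 by 2.15. There, CD1.1 (-2.1), NFATC1 (-2.11), STAT5A (-2.25), RSC1A1 (-2.39), SIRT7 (-2.14), PPP1CA (-2.33) and CXCR4 (-1.23) had negative values. For all these genes the difference between HFCSD and control from 10 to 27 weeks was not called by limma. Adjusted p-values ran from 0.325 for NR4A3 to 0.961 for ARF6. NR4A3 rose by 2.97 in control and by 1.97 under HFCSD. SREBF1, COL6A1, VTN and KCNC4 instead separated HFCSD from control, being higher at 27 weeks under HFCSD and lower in control blood. Under HFCD they changed by 0.24, 0.47, 1.13 and 1.54 from 10 to 27 weeks, which did not differ from HFCSD by limma (adjusted p 1 for each). By limma on 22 arrays, the change from 10 to 19 weeks differed between HFCSD and control for 0 of 17853 probes (0%), with 1215 at an unadjusted p under 0.05. Scan day differs between the diets at 19 weeks here, as 3 of the 4 control arrays shared no scan day with HFCSD arrays. Leaving out replicate 1 of control 19 weeks gave 3 calls and leaving out replicate 3 of HFCSD 19 weeks gave 2; no other tool was run on this difference. Against HFCD, the change from 10 to 27 weeks differed for 0 of 19056 probes (0%) by limma, with 182 at an unadjusted p under 0.05, and 1 without replicate 2 of HFCD 27 weeks.

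The change from 10 to 27 weeks differed between HFCSD and control for 253 of 17898 probes (1.41%) by limma, with 221 larger (1.23%) and 32 smaller (0.179%) under HFCSD and 3391 at an unadjusted p under 0.05. Of the 3391, 1822 were larger and 1569 smaller, with a median of -0.21 over all probes tested. SREBF1 changed by 1.23 under HFCSD and -1.63 under control, a difference of 2.86 (SE 0.55, adjusted p 0.0285). It averaged 11.36, 10.8 and 12.6 at 10, 19 and 27 weeks of HFCSD and 11.37, 12.08 and 9.74 under control, with control 27-week arrays at 9.37 to 10.76. KCNC4 differed by 3.25, VTN by 2.86, CBLN4 by 2.68, SLC5A10 by 2.63, COL6A1 by 2.35, APOC3 by 2.11 and DES by 2.08. Second probes of SREBF1 (3.96, adjusted p 0.193), SLC5A10 (-1.36, adjusted p 0.364) and DES (0.94, adjusted p 0.265) were not called. GRK7, a kinase of cone cells that the study had named, differed by 3.56 (adjusted p 0.0457), though its HFCSD value alone was 1.94 (adjusted p 0.0928) with overlapping weeks. CRP (3.08, adjusted p 0.0531) and THBS1 (2.81, adjusted p 0.0853) were not called. DMP1 was the 1 named gene called smaller under HFCSD, with 0 HFCSD arrays of 27 weeks well above background. The count of 253 became 416, 1, 147 and 89 without replicates 1 to 4 of control 10 weeks, and 514, 1 and 1 without replicates 2, 3 and 4 of HFCSD 10 weeks. It was 599 and 154 without replicates 1 and 3 of control 19 weeks, 1, 2, 1 and 862 without replicates 1 to 4 of control 27 weeks, and 1, 1 and 520 without replicates 1 to 3 of HFCSD 27 weeks. Each of these genes lost its call in 8 or more of the 22 fits (adjusted p 0.0501 to 0.142). With all 33 whole blood arrays in the fit, or scan day as a block, the count was 0.

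From 19 to 27 weeks the HFCSD and control changes differed for 2062 of 17972 probes (11.5%) by limma, 1342 larger (7.47%) and 720 smaller (4.01%) under HFCSD, with 5687 at an unadjusted p under 0.05. Of the 5687, 2550 were larger and 3137 smaller, the other way from the calls, with a median of -0.28 over all probes tested. ROMO1 differed by 5.73 (adjusted p 0.00867), GRK7 by 4.64, ACSL1, which activates long-chain fatty acids, by 4.63 and UPK2 by 4.24. The ROMO1 value comes from its brightest probe alone, as its other 3 probes differed by 0.54, 0.66 and 0.34 (adjusted p 0.414 to 0.71). SREBF1 changed by 1.8 under HFCSD and by -2.34 under control, a difference of 4.14 (SE 0.57, adjusted p 0.00132), and SPARCL1 also differed by 4.14. A second SREBF1 probe of like brightness differed by 5.18 without a call (adjusted p 0.0502). Smaller under HFCSD were MSMO1, an enzyme of cholesterol synthesis (-1.67, adjusted p 0.0455), PNISR (-1.51, adjusted p 0.0267) and PANK3, which makes coenzyme A (-1.48, adjusted p 0.0117). The count was 750 and 1185 without replicates 2 and 3 of HFCSD 19 weeks, 1288, 1219, 1015 and 3169 without replicates 1 to 4 of control 27 weeks, and 692, 1155 and 3221 without replicates 1 to 3 of HFCSD 27 weeks. ROMO1, GRK7, ACSL1, UPK2, SREBF1 and PANK3 were called in each of the 22 fits. SPARCL1 was not called without replicate 2 of HFCSD 19 weeks (adjusted p 0.054), PNISR in 4 fits (adjusted p 0.0573 to 0.0944) and MSMO1 in 15 (adjusted p 0.0506 to 0.153). With all 33 whole blood arrays the count was 0, and with scan day as a block 490. Of the 4 control arrays of 19 weeks, 3 were scanned on a day that held no HFCSD array, so scan day differs between the diets at 19 weeks in this difference. Normexp background correction moved the median of all probes in this difference by 0.11.

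Changes between HFCSD weeks differed with the base composition of the probes, which are 60 bases long. Probes were put in 4 classes by their share of G and C, up to 35%, to 40%, to 45% and above 45%. The median change in these classes was 0.28, 0.09, -0.25 and -0.72 for 19 minus 10 weeks, and -0.32, -0.18, 0.03 and 0.56 for 27 minus 19 weeks. Between 10 and 27 weeks it was -0.01, -0.02, -0.11 and -0.08. In the class above 45%, 2 probes were called higher and 28 lower of 342 for 19 minus 10 weeks, and 39 higher and 0 lower of 313 for 27 minus 19 weeks by limma. For 27 minus 10 weeks it had 20 higher and 41 lower of 348, and the share called lower rose over the classes from 2.97% through 5.24% and 9.75% to 11.8%. On single arrays, the median of the class above 45% exceeded that of the class up to 35% by 1.53, 1.89, 1.05 and 1.44 at 10 weeks of HFCSD, by 0.79, 0.75 and -0.5 at 19 weeks and by 1.38, 1.68 and 0.7 at 27 weeks. The 19-week arrays had the smaller gaps, with replicate 3 the lowest, and overlapped the 27-week arrays. On the control arrays of 27 weeks the gap was -0.02, 0.22, -0.01 and -0.16, below that of every HFCSD array of 27 weeks, and the difference in change from 10 to 27 weeks between HFCSD and control ran from -0.41 in the lowest class to 0.71 in the highest. From 19 to 27 weeks this difference ran from -0.53 to 1, with 89 probes called higher and 0 lower of 332 in the highest class by limma. Centring each array within the classes, an adjustment chosen after seeing the data, gave 985 calls for 19 minus 10 weeks (737 of the 1059 among them), 2378 for 27 minus 10 weeks (1944 of 2140) and 842 for 27 minus 19 weeks (722 of 905). For the difference from control from 10 to 27 weeks it gave 138 calls (125 of the 253 among them), and from 19 to 27 weeks 1755 (1351 of the 2062). What base composition contributed to the changes was not tested further.

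**Figure D3:**
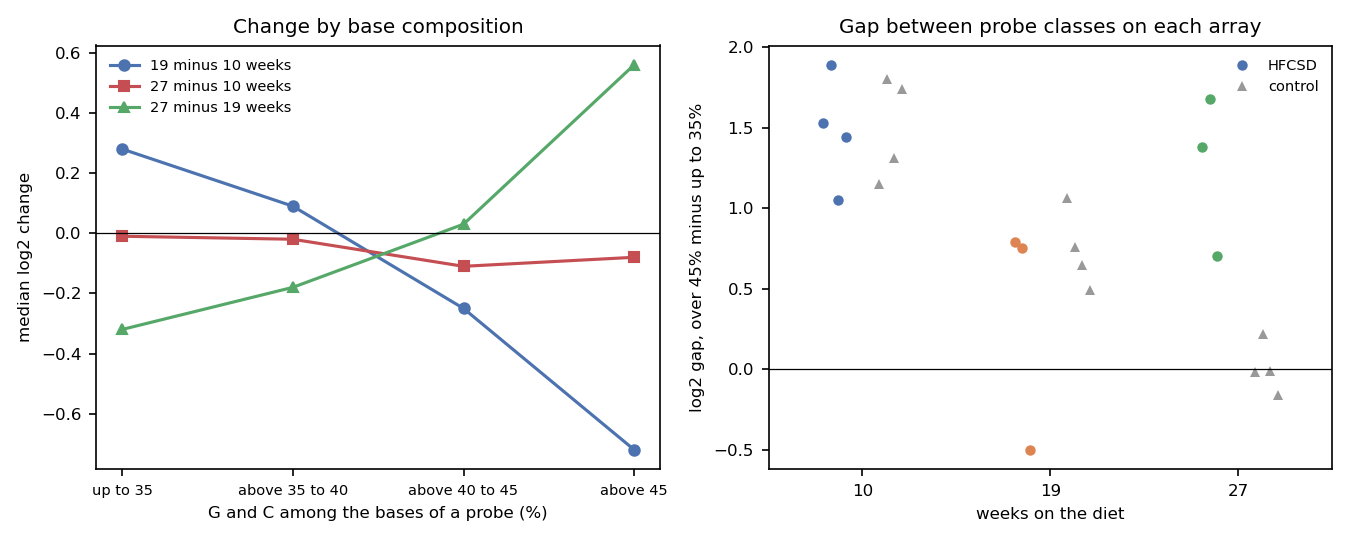
Median log2 change between HFCSD weeks (left, y axis) by class of probe G and C share in percent (x axis), and the log2 gap between the classes above 45% and up to 35% on each whole blood array (right, y axis) by week. For 19 minus 10 weeks the median runs from 0.28 down to -0.72 across the classes, and for 27 minus 19 weeks from -0.32 up to 0.56.

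Sequences of 4 probes are given with G and C in capitals, because the median change differed with the share of these bases for 19 minus 10 and 27 minus 19 weeks. The probe of SREBF1, highest at 27 weeks of HFCSD, has 66.7% G and C, and that of STAT5A, lower at both later weeks, 55%. The probe of STAG3, highest at 19 weeks, has 35%, and that of NAMPT, lower at 27 than at 19 weeks, 36.7%.
SREBF1: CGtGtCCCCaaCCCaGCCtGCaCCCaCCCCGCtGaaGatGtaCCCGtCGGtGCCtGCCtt
STAT5A: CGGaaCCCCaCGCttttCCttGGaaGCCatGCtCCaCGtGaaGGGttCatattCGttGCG
STAG3: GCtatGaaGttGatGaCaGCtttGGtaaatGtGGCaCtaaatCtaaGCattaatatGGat
NAMPT: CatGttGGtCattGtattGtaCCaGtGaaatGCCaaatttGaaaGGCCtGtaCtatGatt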

How the data were processed

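RNA of whole blood of pigs at 10, 19 and 27 weeks of HFCSD was measured on 1-colour arrays (4, 3 and 3), and the deposited files hold 1 array per sample. Per the file headers, the authors' scans were read with Feature Extraction 10.5.1.1 (9.5.3.1 in the labels), which gave each spot an intensity with background subtracted and spatial trends removed within the array, and with a surrogate for signals in the noise. Of 45220 spots, 43803 that are not controls were used, for 43603 probes. Log2 intensities of all 45 arrays were quantile normalized, spots marked as outliers were left out, and spots of the same probe were averaged. On the HFCSD arrays 37.1% to 48.4% of spots were well above background, 13827 to 18311 carried the surrogate, and 0 were saturated. The number of arrays limits the precision.

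Weeks were compared with limma 3.58.1 in R 4.3.3, with the R package data.table (version 1.17.8), over the 10 HFCSD arrays, on probes that, in at least 1 of the weeks compared, were well above background on all usable arrays. The differences in change between diets were fitted over the arrays of both diets. A call is a Benjamini-Hochberg adjusted p under 0.05. The pipeline was tested on simulated data. Similarity of arrays and shares of spots were compared by exact permutation. Figures were drawn with matplotlib 3.10.9 in Python 3.11.15.

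Gene names came from the array annotation matched to the reference: 3394 probes of 2245 genes have one, 1993 by RefSeq accession, 823 by gene name, 555 by a similar protein and 23 by description. A gene is represented by its brightest probe. By a fixed rule, the text names up to 10 rises and 10 falls per week comparison, called and without overlap of the weeks, up to 5 in each direction per difference between diets, the 4 members of each of 24 lists with the largest change from 10 to 27 weeks plus called members where there are up to 5, and genes the study had named. Of these, the text gives most that were called and some of the others, selected after their values were seen. A cytochrome P450 probe that the rule named, with the largest fitted rise from 10 to 27 weeks among named genes, whose symbols were merged in the reference, was left out. Genes named as present and in the lists' absent members were chosen after their values were seen. The members of the lists and the lists themselves were chosen with earlier results of these data known.

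Alternatives were scaling to the 75th percentile, normexp background correction with an offset of 50, normalizing only the arrays in a fit, the table deposited for the series, other presence rules, other models and tests, the study's criterion of a fold above 2 or below 0.5, and leaving out each array. White blood cell arrays were used only in the normalization. Scan day and slide were read from the file headers. The 5 scan days and 16 slides hold the whole series. After removing week means, HFCSD arrays of the same replicate number correlated at 0.398, 0.244 and 0.15 between 19 and 27 weeks, each over 0.1, so the value with the replicate number as a block is given beside that comparison. The labels do not say that a number marks a pig. The pairs were first judged over all weeks together, and this comparison was judged alone only after the counts with the block were known.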

Additional observations from a re-analysis of the deposited data

Results flagged for a closer look

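Among groups of 4 arrays at 10 weeks of HFCSD, 139 sets of values were tested for an array far from the other 3, and 7 had one; chance gives about 1 in 20 groups. The mean level of the MHC class I and class II list was 12.43 on replicate 1 against 13.02 to 13.14 on the others. The mean level of antioxidant enzymes was 10.76 on replicate 3 against 11 to 11.04. CCND2 read 11.59 on replicate 4 against 11.93 to 12, and CD36 read 7.38 on the same array against 7.74 to 7.79. On replicate 2, HSPE1 read 10.99 against 11.45 to 11.48 and RPL22 read 11.15 against 12.47 to 12.57. NOC3L read 3.68 on replicate 1 against 1.36 to 1.51, with no array of that week well above background. The cause of these values was not tested.

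The change under HFCSD differed from that in control pigs, by limma's test of the difference, for 29 genes with a name from 10 to 27 weeks, of which 9 are given: SREBF1 (2.86), VTN (2.86), GRK7 (3.56), KCNC4 (3.25), CBLN4 (2.68), SLC5A10 (2.63), COL6A1 (2.35), APOC3 (2.11) and DES (2.08). From 19 to 27 weeks it differed for 140, of which 9 are given: ROMO1 (5.73), GRK7 (4.64), ACSL1 (4.63), UPK2 (4.24), SREBF1 (4.14), SPARCL1 (4.14), MSMO1 (-1.67), PNISR (-1.51) and PANK3 (-1.48). All 9 of the first set lost their call without replicate 3 or 4 of HFCSD 10 weeks, replicate 1 or 2 of HFCSD 27 weeks, replicate 2 of control 10 weeks, or replicate 1, 2 or 3 of control 27 weeks (SREBF1, SLC5A10, COL6A1 and DES at an adjusted p of 0.0628 to 0.0934). In the second set SPARCL1 was not called without replicate 2 of HFCSD 19 weeks (adjusted p 0.054), PNISR in 4 of 22 fits with 1 array left out (0.0573 to 0.0944) and MSMO1 in 15 (0.0506 to 0.153). The cause was not tested.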

How the results depend on the processing

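Counts are of probes called. For 19 minus 10 weeks of HFCSD (1059), the count was 697 with the weaker presence flag, 504 without a filter on dim probes and 164 with the study's test after adjustment. For 27 minus 10 weeks (2140), it was 1162 without the filter, 843 with the replicate number as a block, 1005 with the study's test and 740 with each array's fraction of bright spots as a covariate. For 27 minus 19 weeks (905), it was 29 without the filter, 2248 with the block, 1 with the study's adjusted test, 1599 with the study's criterion, 7 with all 33 whole blood arrays and 470 with the covariate. Other alternatives gave counts within 1.5 times these.

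For the difference from control from 10 to 19 weeks (0 by limma, 1215 at an unadjusted p under 0.05), the count was 1 without the filter and 3 with scan day as a block. From 10 to 27 weeks (253), it was 149 with the weaker flag, 6 without the filter, 165 with the block, 138 after centring within base composition classes, chosen after seeing the data, and 0 by limma with all 33 arrays, scan day or the covariate. From 19 to 27 weeks (2062), it was 1295 without the filter, 0 with all 33 arrays, 490 with scan day and 1256 with the covariate. The cause was not tested. Scan day as a block could not be fitted for the comparisons of HFCSD weeks.

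With 1 array left out, counts ran from 277 to 1088 for 19 minus 10 weeks, 560 to 2655 for 27 minus 10, 0 to 1739 for 27 minus 19, 0 to 3, 1 to 862 and 692 to 3221 for the differences from control in the same order as above, and 0 to 1 for the difference from HFCD. The similarity of arrays within and between weeks differed by 0.0223 to 0.0368 over all alternatives, higher within weeks in each. The difference in shares of spots ran from -3.66 to 1.52 for 19 minus 10 weeks (0.588 and 0.591 without replicate 3 or 4 of 10 weeks), and the 27 minus 19 difference was 0.158 with the weaker flag.

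Of 75 genes given in the text for 27 minus 10 weeks, 1111 values under alternatives other than leaving out arrays held 884 on the same side of the threshold, 210 weaker, 17 stronger and 0 with the opposite direction; for 46 genes for 19 minus 10 weeks these were 561, 102, 15 and 0 of 678, and for 32 genes for 27 minus 19 weeks 322, 152, 1 and 0 of 475. In comparisons with 10 weeks, arrays are taken to share only a number, as 1 pair was at -0.116 for 19 and 1 at 0.0953 for 27 weeks. Over all weeks, correlations of arrays with the same number after removing week means ran from -0.116 to 0.469 (7 of 9 pairs over 0.1) and of different number from -0.542 to 0.468 (7 of 24 over 0.1), so not every array correlated best with its own number. The block changed no call of the 30 called genes given in the text for 27 minus 19 weeks. Probes near background limit what can be called.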
